A study of Mus musculus with 14 samples.

Results

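The mitosis genes are 43 genes listed by symbol for their part in nuclear and cell division: mitotic kinases and cyclins, kinetochore and spindle genes, and genes of cytokinesis. All 43 symbols matched 1 gene each among the 54532 genes of the deposited table, and all 43 were among the 15360 genes that passed the filter on low counts, so no member was lost. The tumours came from 4T1 cells, a mouse mammary carcinoma line used as a model of triple-negative breast cancer. Each mouse received 1000000 cells under the skin at the mammary gland, and intraperitoneal injections started on day 9, at a tumour volume near 100 mm3, once every 6 days for 3 cycles. In 4 libraries the mice had PBS alone (PBS); 5 libraries came from cyclophosphamide at a dose of 100 mg/kg (CTX100), and 5 from the higher dose of 140 mg/kg (CTX140). Tumours were taken 3 days after the third cycle, and the strain and age of the mice are not given in the labels used here. Whether every library stands for its own mouse is not stated, so a p-value here measures the spread between these samples. The log2 fold changes below are from edgeR with their SE (n = 4 PBS, 5 CTX100 and 5 CTX140 libraries), and each adjusted p is from its quasi-likelihood test, adjusted over the 15360 genes by the Benjamini-Hochberg method.

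Cells that divide switch on a shared programme late in the cycle. Cyclin B and CDK1 drive entry into mitosis, the Aurora and Polo kinases build and correct the spindle, the checkpoint holds anaphase until every kinetochore is attached, and the anaphase-promoting complex with CDC20 then degrades cyclin B and securin. The transcription factors FOXM1 and B-Myb, with the MuvB complex, switch these genes on through a promoter sequence called the CHR, and p53 with its target p21 represses them through the same sequence. Cyclophosphamide is a prodrug whose active products crosslink DNA, and in cultured cells such damage activates p53 and stops cells before mitosis. In bulk tumour RNA a lower level can come from fewer dividing cells or from less transcript per cell, and these cannot be told apart.

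Values per library are counts per 1000000 of the scaled library size (CPM). Library totals ran from 14423875 to 19282726 counts. Reads of the 43 mitosis genes made up 0.269 to 0.370% of counts in the PBS libraries, 0.413 to 0.511% in the CTX100 libraries and 0.276 to 0.430% in the CTX140 libraries. Keratins 8 and 18, which mark the carcinoma cells, were abundant in every group: Krt8 averaged 911 ± 181 CPM in PBS, 1104 ± 74.9 CPM in CTX100 and 876 ± 105 CPM in CTX140 (SD over the libraries). The other 10 tested epithelial markers were much lower in PBS, between 0.177 ± 0.151 CPM for Esrp1 and 36.1 ± 25.3 CPM for Krt7. Below, the level of a gene list means the average log2 CPM of its tested members in 1 library.

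As a group, the 43 genes were highest at the lower dose when scaled to library size. Their level was 5.91, 6.02, 5.63 and 5.94 in the PBS libraries, 6.38, 6.33, 6.50, 6.29 and 6.29 in the CTX100 libraries, and 5.64, 5.87, 6.06, 5.93 and 6.29 in the CTX140 libraries. Every CTX100 library lay above every PBS library, whereas the CTX140 libraries ran from the lowest PBS level to that of the lowest CTX100 libraries. The mean level differed by 0.48 for CTX100 against PBS, 0.09 for CTX140 against PBS and -0.40 for CTX140 against CTX100. Taken relative to the mean of the 12 tested epithelial markers in the same library, these differences were -0.25, -1.79 and -1.54, which puts PBS highest, and the first of them was 0.05 without PBS 4. Relative to Krt8 and Krt18 alone, a scale added after the data were seen, they were 0.28, 0.19 and -0.09. The median log2 fold change of the 43 genes was 0.52 for CTX100 against PBS, 0.13 for CTX140 against PBS and -0.38 for CTX140 against CTX100, beside medians of -0.01, 0.02 and 0.03 over all 15360 genes tested. These 3 comparisons share libraries in pairs, so their values stand side by side and do not support one another.

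**Figure D1:**
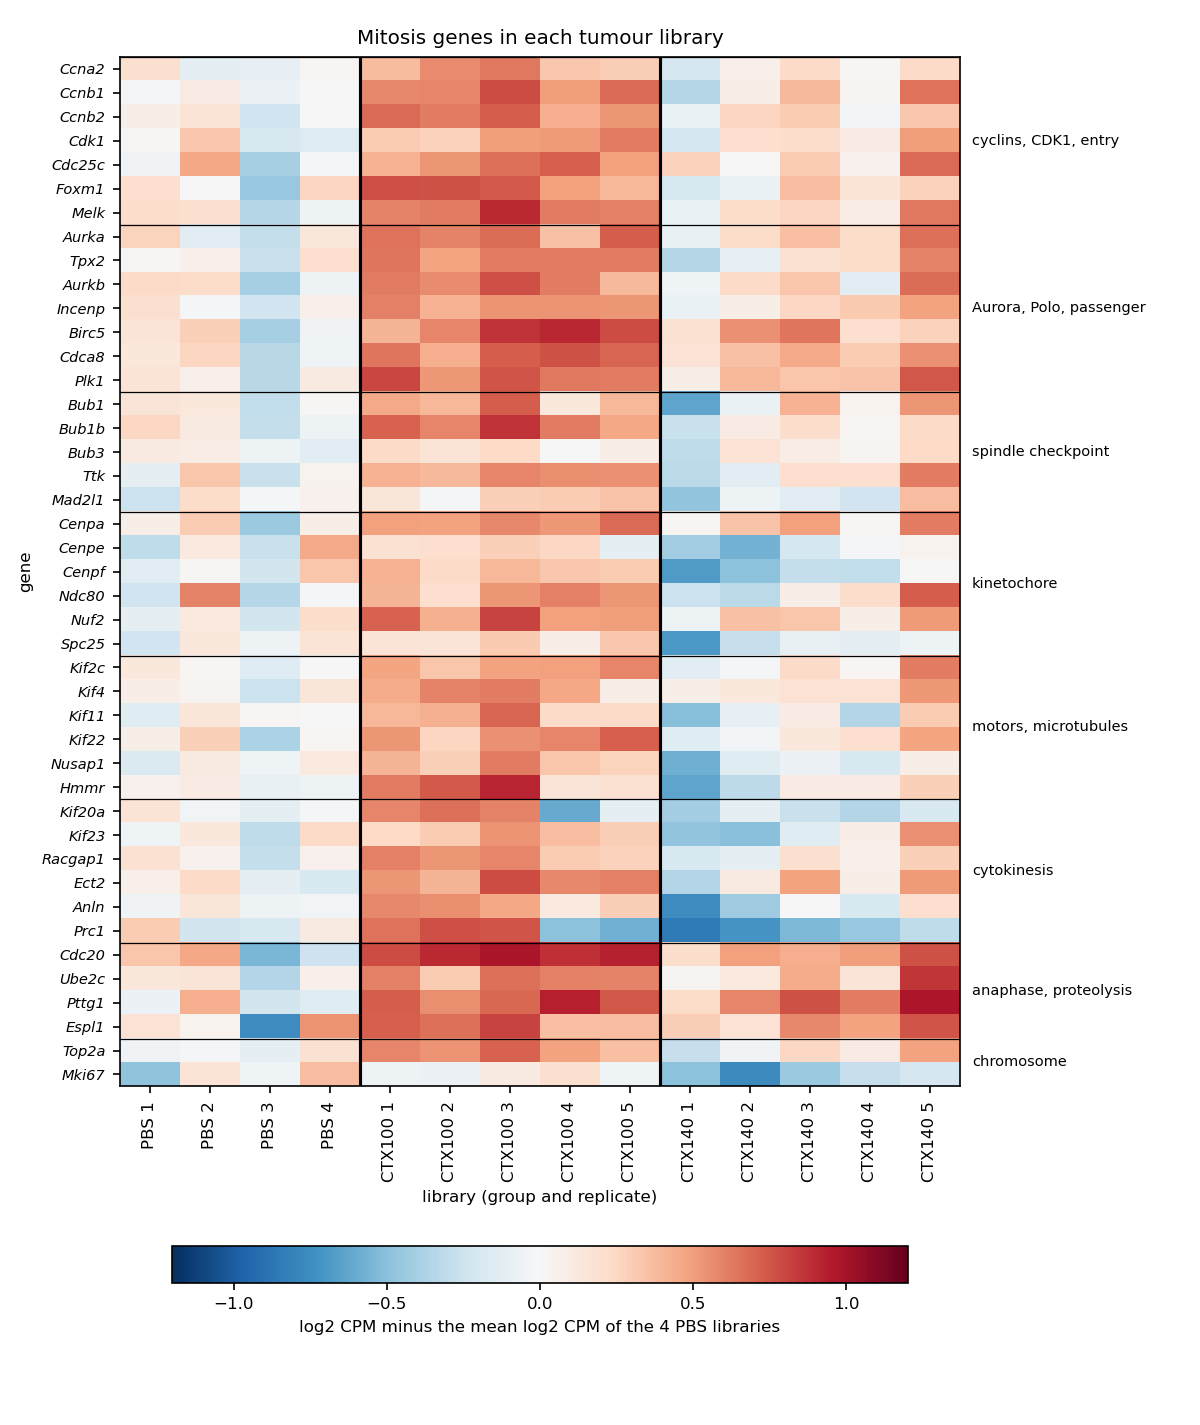
Level of each of the 43 mitosis genes (down the page, by role) in each of the 14 libraries (across), as log2 CPM minus the mean log2 CPM of the 4 PBS libraries, red above and blue below that mean. The CTX100 columns are red for most genes, though only faintly for Bub3, and mixed for Mki67. Prc1 and Kif20a are red in CTX100 1 to 3 and blue in CTX100 4 and 5. The CTX140 columns range from mostly blue in replicate 1 to mostly red in replicate 5.

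Against PBS, 11 of the 43 genes rose in CTX100 and 0 fell at an adjusted p under 0.05 by edgeR's quasi-likelihood test. The 11 were Ccnb1, Ccnb2, Melk, Plk1, Birc5, Incenp, Cdca8, Bub1b, Nuf2, Cdc20 and Pttg1, with log2 fold changes between 0.52 and 0.83. Over all genes tested, 1.6% were called in this comparison, 1.2% as higher and 0.397% as lower. At an adjusted p under 0.10 there were 23 of the 43, beside 4.47% of all genes. In 27 of the 43 genes every CTX100 library exceeded every PBS library, beside 5.17% of all genes, while every CTX100 library was below every PBS library in 0, beside 3.55%. The log2 fold change was positive for 42 of the 43 and for 48.3% of all genes. At an unadjusted p under 0.05, 34 were higher and 0 lower, and DESeq2 called 23 higher and limma on the FPKM values 8, with 0 lower by either. With the replicate number as a block, edgeR called 2 higher and 0 lower. The count of 11 rests on the full set of libraries: it was 0 without PBS 3, PBS 4 or CTX100 3, 1 without CTX100 2, CTX100 4 or CTX100 5, 2 without CTX100 1, 9 without PBS 1 and 16 without PBS 2. Over the 17 alternatives the log2 fold changes of the 11 genes lay between 0.45 and 1.00, with adjusted p of up to 0.158. Over all alternatives the median log2 fold change was between 0.41 and 0.55.

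Against PBS, 1 of the 43 genes rose in CTX140 and 1 fell, where 21.3% of all genes were called. Pttg1, which encodes securin, rose, and Mki67, the proliferation antigen Ki-67, fell. Called genes made up 11.1% (higher) and 10.1% (lower) of all genes tested. The log2 fold change was positive for 31 of the 43 genes, beside 52.2% of all genes, and 7 of the 43 had an adjusted p under 0.10, beside 30.7% of all genes. Every CTX140 library was above every PBS library for 0 of the 43, beside 7.34% of all genes, and below for Prc1 alone, beside 6.91%. The 1 gene called higher became 4 without PBS 2 and 3 without CTX140 1. The 1 called lower became 2 without CTX140 5 and 0 without PBS 2, PBS 3, PBS 4, CTX140 1, CTX140 2 or CTX140 3. The median log2 fold change of 0.13 became 0.03 without CTX140 5, 0.05 without PBS 3, 0.20 without PBS 2 and 0.23 without CTX140 1.

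Against CTX100, CTX140 had a negative log2 fold change for each of the 43 genes, beside a positive one for 53.4% of all genes. The test called 3 of them, Cenpf, Bub1b and Nusap1, and 0 as higher, where 1.25% of all genes were called, 0.475% as lower and 0.775% as higher. At an adjusted p under 0.10 there were 15 of the 43, beside 7.51% of all genes. At an unadjusted p under 0.05, 33 were lower and 0 higher, and DESeq2 called 13 lower and limma 3, with 0 higher by either. In 9 genes every CTX140 library was below every CTX100 library, beside 3.71% of all genes, and in 0 every CTX140 library was above, beside 2.33%. The count of 3 became 20 without CTX140 5 and 4 without CTX100 5, stayed at 3 without CTX140 4, and was 0 without any 1 of the other 7 libraries, while the median log2 fold change was between -0.48 and -0.30 over all alternatives.

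**Figure D2:**
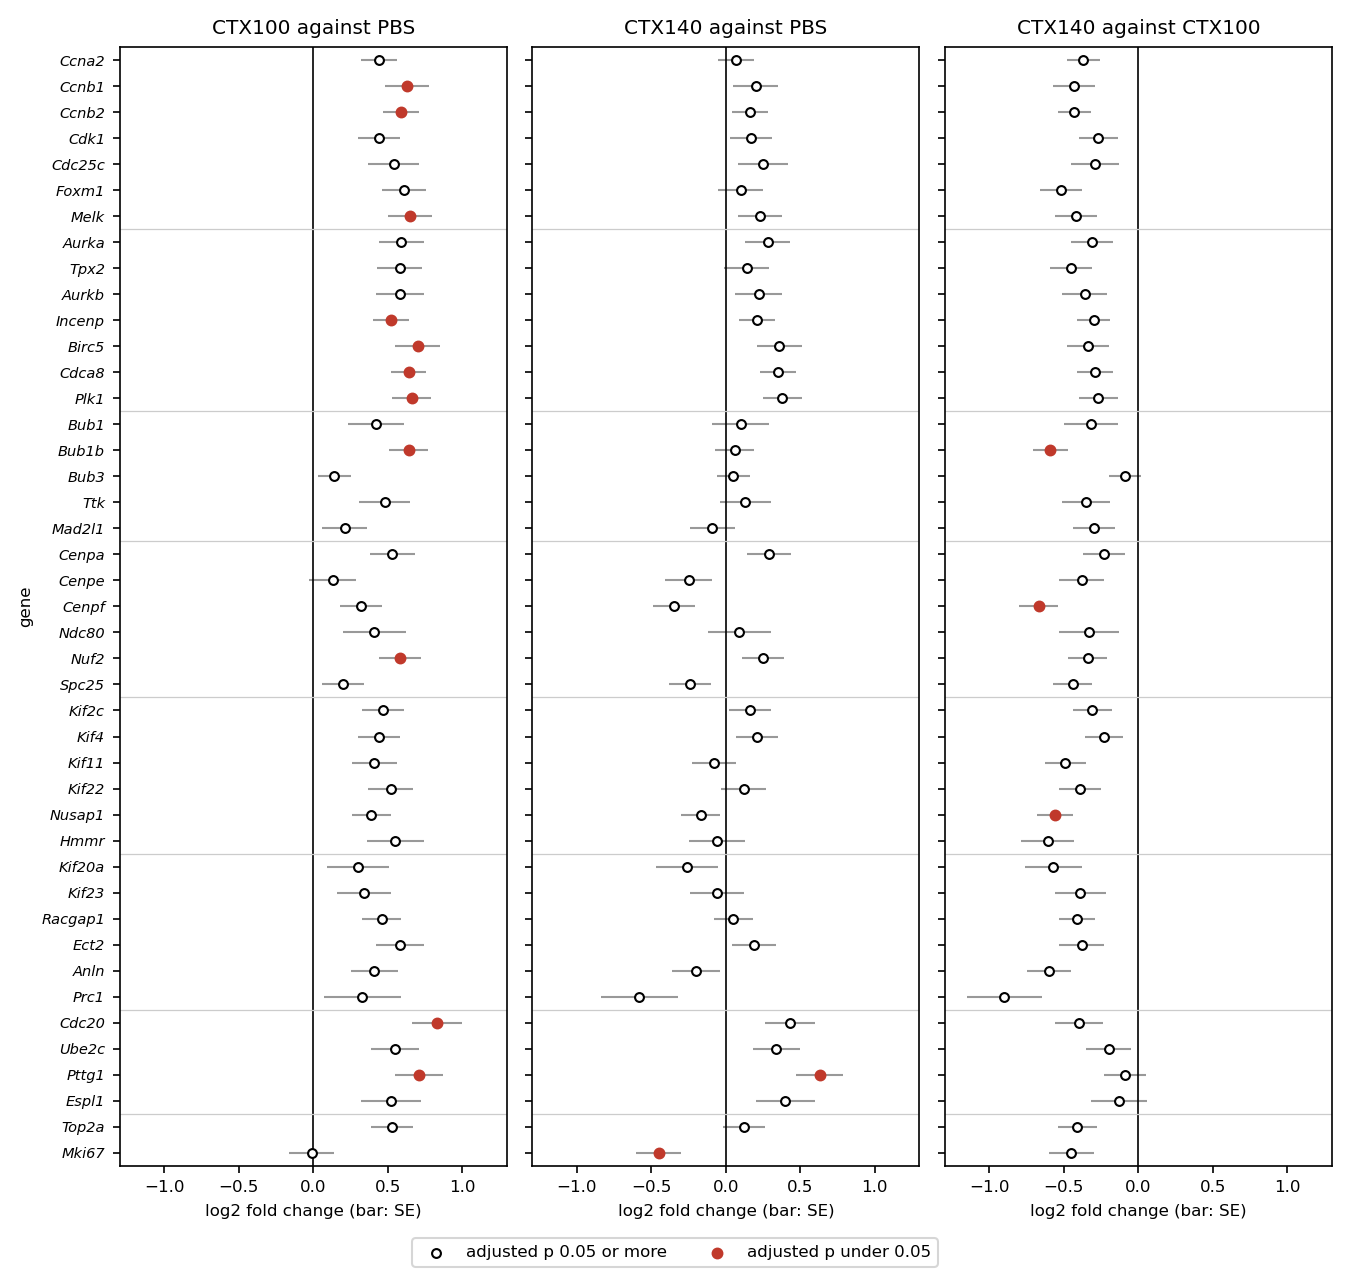
Log2 fold change of each mitosis gene (down the page, by role) with its SE in 3 comparisons; filled red points passed an adjusted p of 0.05 in edgeR's test and open points did not. Of the 43 points, 42 are right of 0 for CTX100 against PBS, 31 for CTX140 against PBS and none for CTX140 against CTX100.

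Cyclins, CDK1 and the controls of entry into mitosis formed the first role group, with 7 genes, of which Ccnb1, Ccnb2 and Melk rose in CTX100. Ccnb2 encodes cyclin B2, a partner of CDK1 (ENSMUSG00000032218, chromosome 9, 70407692 to 70421547 on the minus strand, mm10). Ccnb2 was at 82.99, 88.8, 66.9 and 79.3 CPM in the PBS libraries, 127, 121, 131, 107 and 114 CPM in the CTX100 libraries and 74.95, 94.4, 97.96, 77.2 and 99.1 CPM in the CTX140 libraries. The CTX100 values all lay above those of both other groups, and the CTX140 values overlapped those of PBS. Its log2 fold change was 0.59 ± 0.12 (adjusted p = 0.0246) for CTX100 against PBS, 0.16 ± 0.12 (adjusted p = 0.354) for CTX140 against PBS and -0.43 ± 0.11 (adjusted p = 0.0558) for CTX140 against CTX100. Ccnb1, encoding cyclin B1, rose by 0.63 ± 0.15 (adjusted p = 0.0495) in CTX100. Melk encodes a protein kinase of dividing cells and rose by 0.65 ± 0.15 (adjusted p = 0.0431) in CTX100.

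Foxm1 encodes the transcription factor that drives many of the other 42 genes (ENSMUSG00000001517, chromosome 6, 128362967 to 128376146 on the plus strand). Foxm1 was at 60.8, 53.1, 38.6 and 63.2 CPM in the PBS libraries, 90.3, 89.7, 88.3, 74.6 and 69.9 CPM in the CTX100 libraries and 46.6, 50.1, 68.5, 59.3 and 64.1 CPM in the CTX140 libraries. No CTX100 value overlapped either other group, and PBS 3 was the lowest library. Foxm1 had a log2 fold change of 0.61 ± 0.15 (adjusted p = 0.0538) for CTX100 against PBS and -0.52 ± 0.14 (adjusted p = 0.0672) for CTX140 against CTX100, and neither passed the threshold. For CTX140 against PBS it was 0.10 ± 0.15, with a 95% interval of -0.22 to 0.42. The remaining 3 genes of the group did not pass the test either. Cdk1, the kinase that cyclin B activates, had log2 fold changes of 0.44 ± 0.14 in CTX100 and 0.17 ± 0.14 in CTX140 against PBS. Ccna2, the S and G2 phase cyclin A2, had 0.44 ± 0.12 and 0.07 ± 0.12, and Cdc25c, the phosphatase that activates CDK1, had 0.54 ± 0.17 and 0.25 ± 0.17 in the same order.

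The Aurora and Polo kinases and the chromosomal passenger complex made up 7 genes, and in all 7 every CTX100 library exceeded every PBS library. Of these, 4 passed the test in CTX100. The chromosomal passenger complex is the Aurora B kinase with its scaffold Incenp, survivin (Birc5) and borealin (Cdca8), and it corrects wrong attachments of chromosomes to the spindle. Cdca8 was at 55.4, 60.999, 40.4 and 49.1 CPM in the PBS libraries, 79.5, 68.6, 84.3, 86.7 and 82.7 CPM in the CTX100 libraries and 57.3, 64.997, 69.8, 62.8 and 74.4 CPM in the CTX140 libraries (ENSMUSG00000028873, chromosome 4, 124918465 to 124939311 on the minus strand). The lowest CTX100 library stood above the highest PBS library, and 4 of the 5 CTX140 libraries did too, with CTX140 1 inside the PBS range. Cdca8 rose by 0.64 ± 0.12 (adjusted p = 0.0228) in CTX100 against PBS, and its 0.35 ± 0.12 (adjusted p = 0.0516) in CTX140 against PBS did not pass the threshold. Birc5 rose by 0.70 ± 0.15 (adjusted p = 0.0327) and Incenp by 0.52 ± 0.12 (adjusted p = 0.0416) in CTX100, while Aurkb, the kinase itself, had 0.58 ± 0.16 (adjusted p = 0.0810).

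Plk1, Polo-like kinase 1, rose by 0.66 ± 0.13 (adjusted p = 0.0270) in CTX100 against PBS and had 0.38 ± 0.13 (adjusted p = 0.0519) in CTX140 against PBS. Aurka, the Aurora A kinase of the spindle poles, had 0.59 ± 0.15 (adjusted p = 0.0549) in CTX100. Tpx2 encodes the spindle protein that activates Aurora A (ENSMUSG00000027469, chromosome 2, 152847964 to 152895321 on the plus strand). Tpx2 was at 106, 109, 87.4 and 121 CPM in the PBS libraries, 164, 146, 160.4, 161 and 162 CPM in the CTX100 libraries and 82.7, 98.03, 119.6, 122 and 159 CPM in the CTX140 libraries. The 5 CTX100 values lay above all PBS values, CTX140 5 was as high as they were, and CTX140 1 was the lowest of the 14 libraries. The log2 fold change of Tpx2 was 0.58 ± 0.15 (adjusted p = 0.0649) for CTX100 against PBS and -0.45 ± 0.14 (adjusted p = 0.0946) for CTX140 against CTX100.

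Of the 5 spindle checkpoint genes, 1 passed the test, and it did so in both comparisons that hold the CTX100 libraries. This was Bub1b, which encodes the checkpoint pseudokinase BUBR1 (ENSMUSG00000040084, chromosome 2, 118598211 to 118641591 on the plus strand). Bub1b was at 64.7, 58.9, 44.7 and 52.2 CPM in the PBS libraries, 89.1, 82.1, 99.5, 84.01 and 75.5 CPM in the CTX100 libraries and 45.4, 58.6, 63.1, 55.3 and 64.1 CPM in the CTX140 libraries. Its CTX100 values overlapped neither other group, and its CTX140 values lay within the PBS range. Bub1b rose by 0.64 ± 0.13 (adjusted p = 0.0268) in CTX100 against PBS, and CTX140 was lower than CTX100 with a log2 fold change of -0.59 ± 0.12 (adjusted p = 0.0358). For CTX140 against PBS the log2 fold change was 0.06 ± 0.13, with a 95% interval of -0.22 to 0.33.

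Bub3, which carries BUB1 and BUBR1 to kinetochores and has other roles outside mitosis, varied least of the 43 genes over the 14 libraries, with an SD of 0.15 in log2 CPM (ENSMUSG00000066979, chromosome 7, 131560222 to 131571895 on the plus strand). Bub3 was at 151, 149, 134 and 127 CPM in the PBS libraries, 164, 157, 165, 141 and 148 CPM in the CTX100 libraries and 113, 158, 149, 143 and 165 CPM in the CTX140 libraries. The 3 groups overlapped, and its log2 fold change was 0.14 ± 0.11 in CTX100 and 0.05 ± 0.11 in CTX140 against PBS. The 95% intervals of these differences were -0.10 to 0.39 and -0.19 to 0.30. Mad2l1, the checkpoint effector MAD2, had 0.21 ± 0.15 in CTX100 and -0.09 ± 0.15 in CTX140 against PBS. The checkpoint kinases Ttk and Bub1 had 0.48 ± 0.17 and 0.42 ± 0.19 in CTX100 against PBS, and none of these 4 genes passed the test.

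Among 6 kinetochore and centromere genes, Nuf2 rose in CTX100 and Cenpf was lower in CTX140 than in CTX100. Cenpf encodes a large protein of the outer kinetochore and the nuclear matrix that accumulates in G2 (ENSMUSG00000026605, chromosome 1, 189640606 to 189688086 on the minus strand). Cenpf was at 82.7, 91.7, 77.9 and 114 CPM in the PBS libraries, 121, 107, 119, 114 and 112 CPM in the CTX100 libraries and 56.7, 64.7, 74.6, 73.98 and 91.000 CPM in the CTX140 libraries. The CTX140 values were all below the CTX100 values, and 4 of the 5 were also below the lowest PBS value. Cenpf had a log2 fold change of -0.67 ± 0.13 (adjusted p = 0.0284) for CTX140 against CTX100, -0.35 ± 0.14 (adjusted p = 0.0780) for CTX140 against PBS and 0.32 ± 0.14 (adjusted p = 0.231) for CTX100 against PBS. Nuf2, a subunit of the NDC80 complex that grips microtubule ends (ENSMUSG00000026683, chromosome 1, 169497934 to 169531464 on the minus strand), was at 35.8, 41.8, 33.1 and 44.5 CPM in the PBS libraries, 62.9, 51.7, 67.7, 54.01 and 54.4 CPM in the CTX100 libraries and 37.03, 49.3, 48.5, 40.5 and 54.8 CPM in the CTX140 libraries. All CTX100 values exceeded all PBS values, and the CTX140 values bridged the pair. Nuf2 rose by 0.58 ± 0.14 (adjusted p = 0.0429) in CTX100.

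Of the other genes of the NDC80 complex among the 43, neither passed. Ndc80 itself had 0.41 ± 0.21 (adjusted p = 0.321) and Spc25 0.20 ± 0.14 (adjusted p = 0.465) in CTX100 against PBS. In CTX140 against PBS, Nuf2 had 0.25 ± 0.14, Ndc80 0.09 ± 0.21 and Spc25 -0.24 ± 0.14. No test compared these subunits with each other. Cenpa, the centromeric histone, had 0.53 ± 0.15 (adjusted p = 0.0821) in CTX100, and Cenpe, a kinetochore motor that brings chromosomes to the spindle equator, had 0.13 ± 0.16 (adjusted p = 0.714).

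Spindle motors and microtubule proteins made up 6 genes, with 0 called in CTX100 against PBS and 1 called in CTX140 against CTX100. That gene was Nusap1, which bundles spindle microtubules around chromosomes (ENSMUSG00000027306, chromosome 2, 119618298 to 119651244 on the plus strand). Nusap1 was at 61.8, 75.1, 67.4 and 75.6 CPM in the PBS libraries, 92.4, 85.1, 108, 87.9 and 84.1 CPM in the CTX100 libraries and 46.6, 63.2, 66.4, 61.5 and 73.2 CPM in the CTX140 libraries. CTX100 lay above both other groups in every library, and CTX140 1 was the lowest of all 14. Its log2 fold change was -0.56 ± 0.12 (adjusted p = 0.0384) for CTX140 against CTX100, 0.39 ± 0.13 (adjusted p = 0.121) for CTX100 against PBS and -0.17 ± 0.13 (adjusted p = 0.349) for CTX140 against PBS. Kif22, a chromosome-arm kinesin (ENSMUSG00000030677, chromosome 7, 127027729 to 127042471 on the minus strand), was at 56.2, 64.96, 41.02 and 54.5 CPM in the PBS libraries, 77.04, 63.9, 78.3, 80.3 and 87.8 CPM in the CTX100 libraries and 48.5, 52.3, 58.3, 61.6 and 74.4 CPM in the CTX140 libraries. PBS 2 exceeded the lowest CTX100 library, and CTX140 overlapped both other groups. Its 0.52 ± 0.15 (adjusted p = 0.0810) in CTX100 against PBS did not pass.

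Kif11, the motor that pushes spindle poles apart, Kif2c, which depolymerises microtubules at kinetochores, and Kif4, a chromosome-bound motor, had log2 fold changes of 0.41, 0.47 and 0.44 in CTX100 against PBS. Hmmr, a spindle-pole protein that is also the hyaluronan receptor RHAMM, had 0.55 ± 0.19 (adjusted p = 0.133) in CTX100 against PBS and -0.61 ± 0.18 (adjusted p = 0.0739) in CTX140 against CTX100. In CTX140 against PBS the 6 genes of this group had log2 fold changes between -0.17 and 0.21.

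Of the 6 cytokinesis genes, 0 passed edgeR's test in any of the 3 comparisons. Anln encodes anillin, a scaffold of the contractile ring (ENSMUSG00000036777, chromosome 9, 22332012 to 22389188 on the minus strand). Anln was at 198, 225, 195 and 198 CPM in the PBS libraries, 303, 299, 281, 220.3 and 249 CPM in the CTX100 libraries and 121, 152, 205, 179 and 233 CPM in the CTX140 libraries. PBS 2 was above the lowest CTX100 library, and 3 of the 5 CTX140 libraries were below every PBS library. Its log2 fold change was -0.60 ± 0.15 (adjusted p = 0.0549) for CTX140 against CTX100. Ect2, the exchange factor that activates RhoA at the cleavage furrow (ENSMUSG00000027699, chromosome 3, 27097222 to 27153878 on the minus strand), was at 80.3, 89.8, 71.5 and 67.6 CPM in the PBS libraries, 111, 102, 132, 114 and 116 CPM in the CTX100 libraries and 60.4, 82.999, 108, 80.7 and 109.8 CPM in the CTX140 libraries. The CTX100 values were above all PBS values and overlapped those of CTX140. Ect2 had 0.58 ± 0.16 (adjusted p = 0.0714) in CTX100 against PBS. Racgap1 and Kif23, which together form centralspindlin, had 0.46 ± 0.13 (adjusted p = 0.0761) and 0.34 ± 0.18 (adjusted p = 0.354).

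Prc1, which crosslinks the microtubules of the central spindle, and Kif20a, a motor of the same structure, were uneven within the CTX100 group. Their values are given in full for that reason, a choice made after they were seen. Prc1 was at 37.7, 26.3, 26.8 and 33.004 CPM in the PBS libraries, 47.9, 52.4, 51.7, 21.7 and 20.5 CPM in the CTX100 libraries and 16.96, 18.8, 21.04, 22.3 and 24.7 CPM in the CTX140 libraries. Kif20a was at 29.5, 25.8, 24.4 and 26.1 CPM in the PBS libraries, 39.5, 41.9, 39.97, 17.3 and 24.4 CPM in the CTX100 libraries and 19.95, 24.4, 21.96, 20.7 and 23.2 CPM in the CTX140 libraries. CTX100 1 to 3 were above every PBS library for both genes, while CTX100 4 and CTX100 5 were at or below the lowest PBS library for both. Every CTX140 value of Prc1 was below every PBS value, with -0.58 ± 0.26 (adjusted p = 0.126) for CTX140 against PBS and -0.90 ± 0.25 (adjusted p = 0.0672) for CTX140 against CTX100. Kif20a had -0.57 ± 0.19 (adjusted p = 0.111) for CTX140 against CTX100. Both genes overlap a protein-coding gene on the opposite strand, Rccd1 for Prc1 and Cdc23 for Kif20a, and no source used here says whether counting used the strand. Reads of such pairs cannot be told apart. Rccd1 was at 9.53, 5.44, 5.66, 8.63 and 10.5 CPM and Cdc23 at 35.9, 36.4, 33.1, 26.7 and 21.7 CPM in the CTX100 libraries. In all, 8 of the 43 genes overlap a listed gene that holds at least 10% of their own count: Ccna2, Cdc20, Bub3, Cdca8, Kif4, Kif20a, Nusap1 and Prc1. The part of these overlaps in the results was not tested.

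The 4 genes of anaphase and of mitotic proteolysis had the highest median log2 fold change of the 8 role groups against PBS, 0.63 in CTX100 and 0.42 in CTX140. The lowest of these medians were 0.26 for Top2a and Mki67 and 0.36 for the kinetochore genes in CTX100, and -0.16 for Top2a and Mki67 and -0.13 for the cytokinesis genes in CTX140. Cdc20, the activator that turns on the anaphase-promoting complex (ENSMUSG00000006398, chromosome 4, 118432901 to 118437352 on the minus strand), was at 97.2, 107, 52.9 and 65.2 CPM in the PBS libraries, 133, 144, 153, 142 and 147 CPM in the CTX100 libraries and 89.9, 109, 105, 109 and 132 CPM in the CTX140 libraries. All CTX100 libraries exceeded all PBS libraries, and all were above every CTX140 library; PBS 3 and PBS 4 were the lowest of the 14. Cdc20 rose by 0.83 ± 0.17 (adjusted p = 0.0271) in CTX100 against PBS, the largest change among the 43 genes, and had 0.43 ± 0.17 (adjusted p = 0.0796) in CTX140 against PBS. In CTX100 its log2 fold change was 0.68 to 1.00 over 17 alternatives, and the call was lost without PBS 3, PBS 4 or any 1 of the 5 CTX100 libraries.

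Pttg1 encodes securin, which keeps separase inactive until anaphase (ENSMUSG00000020415, chromosome 11, 43420250 to 43426251 on the minus strand). Its values are given in full because it was called at both doses. Pttg1 was at 45.3, 64.1, 40.7 and 42.999 CPM in the PBS libraries, 78.7, 69.8, 76.6, 90.95 and 79.6 CPM in the CTX100 libraries and 55.2, 71.1, 80.8, 72.5 and 92.8 CPM in the CTX140 libraries. Its CTX100 values were all above PBS, and 4 of the 5 CTX140 values were too; CTX140 5 was the highest of the 14. Pttg1 rose in both doses against PBS, by 0.71 ± 0.16 (adjusted p = 0.0338) in CTX100 and 0.63 ± 0.16 (adjusted p = 0.0105) in CTX140. The call for CTX140 was kept in each of the 17 alternatives, with adjusted p between 0.00204 and 0.0441, and that for CTX100 was lost in 9 of 17, among them without PBS 1, PBS 3, PBS 4 or any 1 of the 5 CTX100 libraries. CTX140 against CTX100 gave -0.09 ± 0.14, with a 95% interval of -0.39 to 0.22. Espl1, which encodes separase, had 0.40 ± 0.20 (adjusted p = 0.174), and Ube2c, the ubiquitin-conjugating enzyme of the anaphase-promoting complex, had 0.34 ± 0.16 (adjusted p = 0.142) in CTX140 against PBS. These 4 genes had positive log2 fold changes of 0.34 to 0.63 in CTX140 against PBS, and 1 of the 4 passed.

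Top2a and Mki67 are both used as markers of proliferation. Top2a encodes topoisomerase II alpha, which untangles sister chromatids (ENSMUSG00000020914, chromosome 11, 98992943 to 99024189 on the minus strand). Top2a was at 413, 419, 395 and 483 CPM in the PBS libraries, 638, 619.6, 695, 595 and 548 CPM in the CTX100 libraries and 351, 413, 507, 456 and 595 CPM in the CTX140 libraries. It was higher in every CTX100 library than in every PBS library, and CTX140 overlapped both groups. Its log2 fold change was 0.53 ± 0.14 (adjusted p = 0.0647) in CTX100 and 0.12 ± 0.14 in CTX140 against PBS. Mki67 encodes Ki-67, which coats mitotic chromosomes (ENSMUSG00000031004, chromosome 7, 135689784 to 135716361 on the minus strand). Mki67 was at 189.5, 296, 256 and 342 CPM in the PBS libraries, 254, 253, 286, 302 and 255 CPM in the CTX100 libraries and 188, 156, 194, 219 and 231 CPM in the CTX140 libraries. The PBS libraries spread the most, and their range held all CTX100 values; the CTX140 values were all below the CTX100 values, and 3 of the 5 were above PBS 1, the lowest PBS library. Mki67 had -0.01 ± 0.15 in CTX100 against PBS, with a 95% interval of -0.33 to 0.32, and fell by 0.45 ± 0.15 (adjusted p = 0.0443) in CTX140 against PBS. That call was lost in 9 of 17 alternatives, among them leaving out PBS 2, PBS 3, PBS 4, CTX140 1, CTX140 2 or CTX140 3, with the log2 fold change between -0.60 and -0.33.

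Levels of different genes are compared here as FPKM, the deposited counts scaled to gene length and library size. In PBS, Ccnb2 stood first at 51.7 ± 5.91 FPKM, followed by Ube2c at 49.6 ± 7.43, Top2a at 47.2 ± 4.02 and Cdc20 at 42.98 ± 13.7 (SD, n = 4). Neighbours among these 4 genes had overlapping SD ranges. Espl1 was last at 2.28 ± 0.761 FPKM, below Kif4 at 3.48 ± 0.396 and Prc1 at 3.75 ± 0.652. In CTX100 the same 4 genes were first, Ccnb2 at 77.8 ± 6.28 and Cdc20 at 76.5 ± 3.88 FPKM, and in CTX140 Ube2c was first at 63.03 ± 16.2 FPKM, within the spread of Cdc20 at 58.2 ± 8.21 (SD, n = 5 each). Prc1 was last in CTX140 at 2.52 ± 0.373 FPKM, with an SD range that overlapped that of Espl1 at 3.01 ± 0.477.

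The 43 genes varied together across libraries, with the differences between groups included. Over the 14 libraries the median SD of a gene's log2 CPM was 0.33, and it was 0.16 once the mean of the 43 genes in the same library was subtracted; the second SD was the smaller one for 41 of the 43 genes. That mean includes the gene itself, and the drop in SD was not computed for other gene lists. Top2a and Racgap1 followed the mean most closely, with relative SDs of 0.09 each, and Prc1, Kif20a, Mki67 and Espl1 least, at 0.47, 0.35, 0.32 and 0.28. Some libraries stood at an end of their group for most genes. CTX140 5 was the highest CTX140 library for 39 of the 43 genes and CTX140 1 the lowest for 35. PBS 3 was the lowest PBS library for 33 genes. In CTX100, the library most often highest was CTX100 3, for 21 genes, and the one most often lowest was CTX100 2, for 17.

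The CTX140 library lowest in mitosis genes was highest in T cell markers, and the one highest in mitosis genes was lowest in them. The level of 13 T cell markers was 5.66, 3.75, 2.93, 2.40 and 2.10 in CTX140 1 to 5, where that of the mitosis genes was 5.64, 5.87, 6.06, 5.93 and 6.29. Adipocyte and blood endothelium markers ran in the same order as T cell markers over these 5 libraries, with levels of 5.98, 5.05, 4.33, 3.57 and 3.24 for the first and 4.96, 4.46, 4.18, 3.46 and 3.20 for the second. Not every list ran in that order. Neutrophil markers were at 4.78, 4.75, 5.37, 6.04 and 5.37, and macrophage markers were highest in CTX140 2 at 8.24 and lowest in CTX140 4 at 5.76. Red blood cell markers were at 4.83 in CTX140 5, against -0.63 to 1.5 in the other 4. CTX140 5, the library with the highest mitosis level, also had the lowest fibroblast marker level of its group, 5.93, while the other 4 had 6.48, 7.32, 6.69 and 6.68. The fibroblast level was 5.45 to 6.01 in CTX100, against 4.68 to 5.14 in PBS. T cell marker levels were 3.10, 2.18, 1.77 and 1.91 in PBS 1 to 4, and PBS 3 was also the PBS library lowest in mitosis genes. They were 2.31, 1.98, 2.14, 2.14 and 2.60 in CTX100 1 to 5. There CTX100 3, highest in mitosis genes at 6.50, was not lowest in T cell markers. CTX100 5, highest in T cell markers, had a mitosis level of 6.29, as did CTX100 4. In CTX140 against PBS 11 of 14 fibroblast markers were called higher, beside 11.1% of all genes. The same held for 9 of 9 adipocyte, 8 of 10 granulocyte precursor and 5 of 13 T cell markers. In CTX100 against PBS these counts were 2, 0, 3 and 0, where only 1.2% of all genes were called higher. There the median log2 fold change was 2.31 for adipocyte and -2.99 for red blood cell markers. No fibroblast or T cell marker was at 0 in a whole group. Mitochondrial transcripts took 9.81% of counts in CTX140 1 and 3.09 to 6.87% in the other 13 libraries. Of 12 tested epithelial markers, 0 were called in CTX100 and 7 (58.3%) rose in CTX140 against PBS, the latter beside 11.1% of all genes. The summed level of the epithelial markers was 1230 to 2040 CPM in CTX140, against 1390 to 2190 CPM in PBS. The part of other cell types in the mitosis gene levels was not tested.

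**Figure D3:**
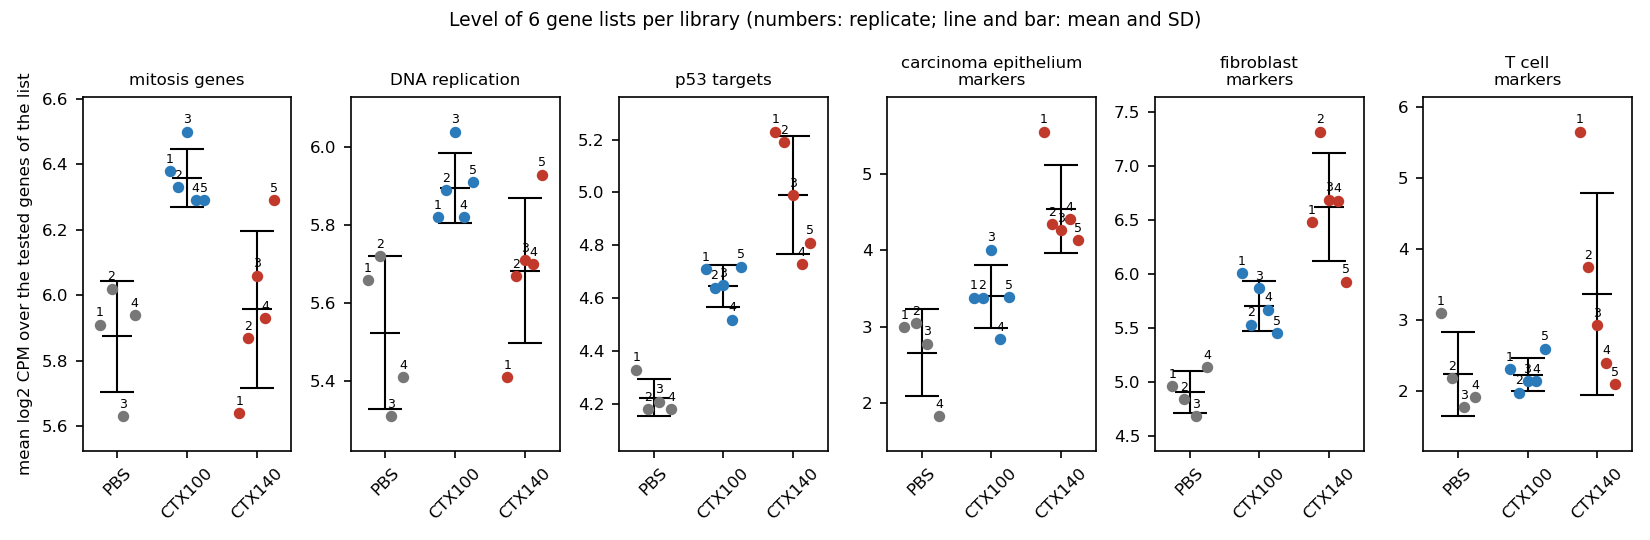
Level of 6 gene lists (mean log2 CPM over the tested genes of a list) in each library, by group; points are libraries numbered by replicate, and bars show mean and SD. The 5 CTX100 libraries sit at 6.29 to 6.50 for the mitosis genes, above the 4 PBS libraries at 5.63 to 6.02, while the p53 targets sit at 4.52 to 4.72 in CTX100 and at 4.73 to 5.23 in CTX140.

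Most of the mitosis genes with a listed promoter had a CHR, the sequence named above as a control of these genes. The CHR is a short sequence at which the MuvB complex binds DNA. It is usually written TTTGAA, and a less frequent form of it is written TTCGAA. The CCAAT box, the site of NF-Y, often lies upstream of a CHR. Promoter windows from 250 bases before to 50 after the gene start were taken from RefSeq on GRCm38.p6, and 36 of the 43 genes had one. Both strands were searched, and a CCAAT match can share at most 1 base with a CHR match. TTTGAA was in 27 of the 36 (75%), against 18.1% of all 27025 promoters of the same length. Within 50 bases of the start it was in 25 (69.4%), against 4.92% of all. Either form of the CHR was within 50 bases of the start in 26 of the 36 (72.2%), against 5.29% of all. CCAAT was in 27 (75%), against 37.9% of all, and 23 (63.9%) had TTTGAA near the start together with a CCAAT anywhere, against 2.11% of all. Of 16 promoters of DNA replication genes, which peak earlier in the cycle, 1 (6.25%) had either CHR form near the start and 11 (68.8%) had CCAAT.

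The first 4 promoters printed here are of genes picked by rule to be described in full, those with the most negative log2 fold change in CTX140 against CTX100. Ccnb2 and Cdc20 rose in CTX100, and their promoters were chosen after the values were seen, to show the usual layout of both motifs. Each runs 5′ to 3′ on the strand of the gene from 170 bases before to 30 bases after the start, with CHR and CCAAT matches on either strand in capitals. The windows are chr1:189688057-189688256 (minus strand) for Cenpf, chr9:22389177-22389376 (minus) for Anln, chr2:118598041-118598240 (plus) for Bub1b, chr2:119618128-119618327 (plus) for Nusap1, chr9:70421525-70421724 (minus) for Ccnb2 and chr4:118437314-118437513 (minus) for Cdc20.
Cenpf: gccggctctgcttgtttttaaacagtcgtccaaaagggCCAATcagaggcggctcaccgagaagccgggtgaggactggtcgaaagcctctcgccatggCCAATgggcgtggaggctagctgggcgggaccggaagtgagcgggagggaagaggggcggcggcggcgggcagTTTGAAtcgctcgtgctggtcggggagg
Anln: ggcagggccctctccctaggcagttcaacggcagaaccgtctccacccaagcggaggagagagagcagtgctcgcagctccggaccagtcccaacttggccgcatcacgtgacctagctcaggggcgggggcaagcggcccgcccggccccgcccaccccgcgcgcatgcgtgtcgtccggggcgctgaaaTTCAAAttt
Bub1b: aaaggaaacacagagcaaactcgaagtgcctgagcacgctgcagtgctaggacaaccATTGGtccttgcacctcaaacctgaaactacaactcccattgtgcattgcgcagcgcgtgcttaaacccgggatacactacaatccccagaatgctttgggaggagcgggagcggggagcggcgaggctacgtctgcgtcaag
Nusap1: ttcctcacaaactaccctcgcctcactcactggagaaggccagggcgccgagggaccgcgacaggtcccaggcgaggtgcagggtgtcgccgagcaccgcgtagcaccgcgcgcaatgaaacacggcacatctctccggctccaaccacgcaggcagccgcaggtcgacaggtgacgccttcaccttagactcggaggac
Ccnb2: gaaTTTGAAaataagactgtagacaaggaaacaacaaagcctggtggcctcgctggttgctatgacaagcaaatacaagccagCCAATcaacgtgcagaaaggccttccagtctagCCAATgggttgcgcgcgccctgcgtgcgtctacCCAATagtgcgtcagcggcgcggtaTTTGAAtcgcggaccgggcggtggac
Cdc20: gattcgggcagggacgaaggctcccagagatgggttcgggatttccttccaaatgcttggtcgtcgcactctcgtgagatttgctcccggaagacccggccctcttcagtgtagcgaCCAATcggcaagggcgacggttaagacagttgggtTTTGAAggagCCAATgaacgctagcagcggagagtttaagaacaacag

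Cenpf, Ccnb2 and Cdc20 had TTTGAA beginning at positions 3, 5 and -18 from the start, with 2, 3 and 2 CCAAT boxes. Anln had TTTGAA on the opposite strand at position 22 (written TTCAAA in the sequence), a further match from position 29 that runs past the bases shown, and no CCAAT. Bub1b had its TTTGAA at position 41 and a TTCGAA at position -188, both beyond the bases shown, and a CCAAT on the opposite strand, and Nusap1 had no match to any of the motifs in the window, which says only that these letters are not in this window. Among the 36 genes, those with a CHR near the start had a median log2 fold change close to that of the rest, and the difference was not tested. The median log2 fold change of the 26 with the element was 0.50 and of the 10 without it 0.52 for CTX100 against PBS. For CTX140 against CTX100 the medians were -0.39 and -0.36 in the same order.

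**Figure D4:**
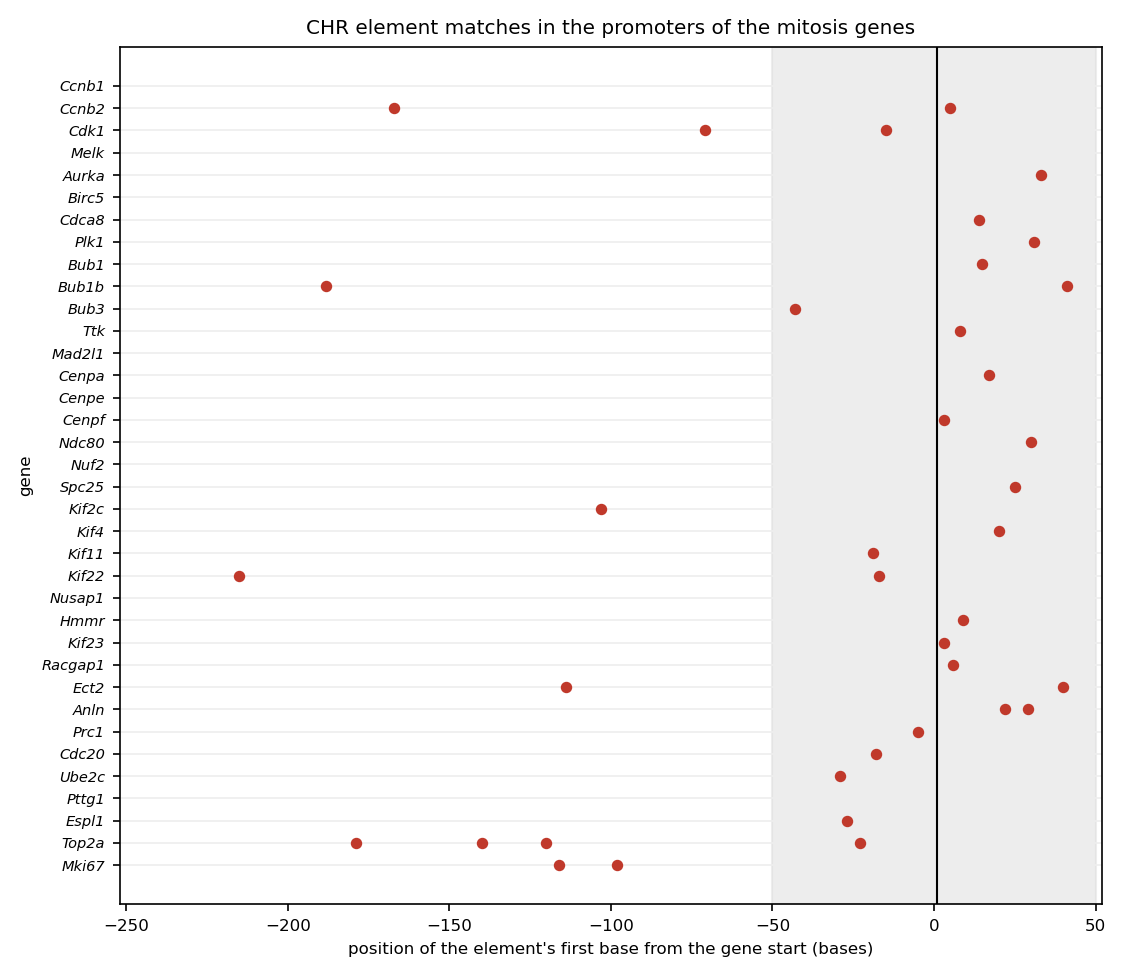
Position of each CHR match (TTTGAA or TTCGAA, either strand) in the 36 mitosis gene promoters found in the table, in bases from the gene start (black line); the grey band marks 50 bases on either side. Matches lie in the band for 26 genes, and 8 genes have none in the window.

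Shorter mitosis genes had the higher log2 fold changes against PBS. Gene lengths are those listed in the deposited table. For CTX100 against PBS the median log2 fold change was 0.59 for the 9 genes under 3 kb, 0.52 for 21 genes of 3 to 6 kb and 0.34 for 13 genes over 6 kb. For CTX140 against PBS these medians were 0.28, 0.13 and -0.06. Across the 43 genes Spearman's rho between length and log2 fold change was -0.56 and -0.52 in these comparisons, and across all 15360 genes it was -0.19 and -0.22; genes of 1 set of libraries are not independent replicates. All genes under 3 kb, of 3 to 6 kb and over 6 kb had medians of 0.17, 0 and -0.13 in CTX140 against PBS. CTX140 against CTX100 had a rho of -0.18 over the 43 genes, with medians of -0.31, -0.38 and -0.39. The genes at the long end are Cenpf, Mki67, Anln, Top2a, Espl1, Cenpe, Mad2l1 and Prc1. The part of gene length in the differences among the 43 genes was not tested.

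**Figure D5:**
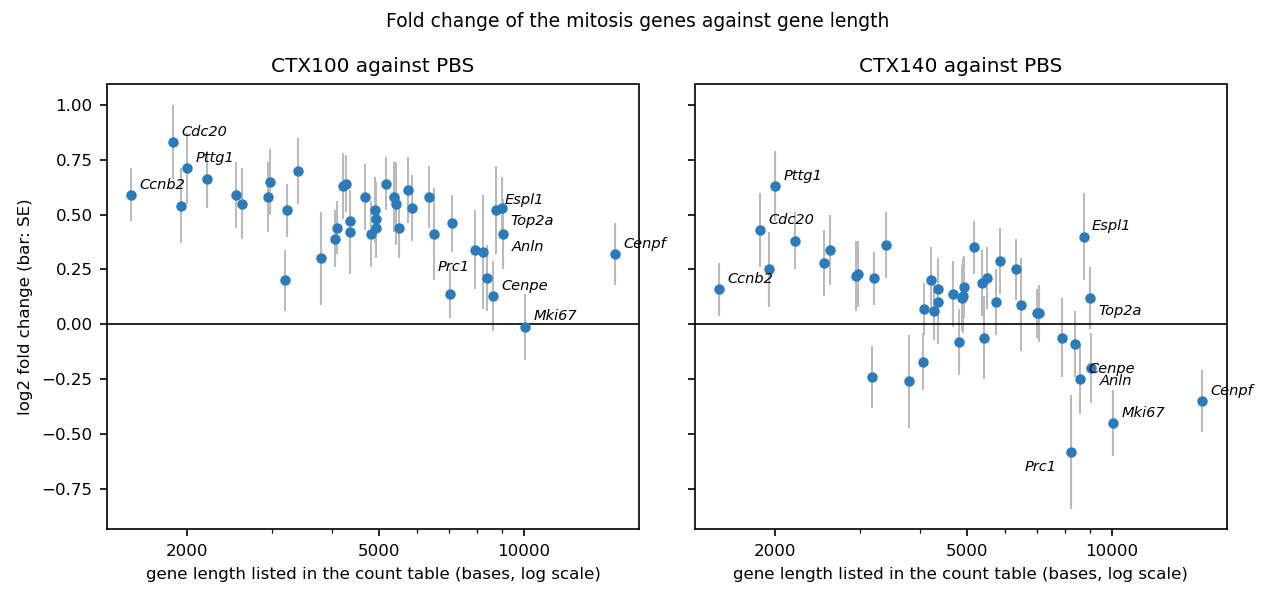
Log2 fold change of the 43 mitosis genes (vertical axis, bar: SE) against the gene length in the deposited table (horizontal axis, bases, log scale), for CTX100 against PBS and CTX140 against PBS. Pttg1 and Cdc20, near 2000 bases, stand at the top, and Mki67, at 10061 bases, near or under 0.

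Other genes of cell division were grouped by role, and the 43 genes are in none of these lists. Of 36 other kinetochore and centromere genes, 2 (5.56%) rose and 0 fell in CTX100 against PBS, beside 1.2% and 0.397% of all genes, with a median log2 fold change of 0.37. Ska1, of the complex that couples kinetochores to microtubules, rose by 0.89 ± 0.18 (adjusted p = 0.0244) there. In CTX140 against PBS 4 of the 36 (11.1%) rose and 2 (5.56%) fell, shares no higher than the 11.1% and 10.1% of all genes, and among them were the inner kinetochore genes Cenpm at 0.69 ± 0.17 (adjusted p = 0.0104) and Cenpc1 at -0.47 ± 0.14 (adjusted p = 0.0291). Of 37 other spindle and cytokinesis genes, 4 (10.8%) rose and 0 fell in CTX100, with a median of 0.36. The spindle motor gene Kifc1 rose by 0.69 ± 0.13 (adjusted p = 0.0228) in CTX100, and in CTX140 against PBS the microtubule regulator Psrc1 rose by 0.65 ± 0.15 (adjusted p = 0.00691) while Nedd1, which recruits gamma-tubulin, had -0.48 ± 0.12 (adjusted p = 0.0121). In CTX140 against CTX100, 2 of the 37 (5.41%) were called lower, beside 0.475% of all genes, with Depdc1b at -0.80 ± 0.16 (adjusted p = 0.0292).

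Of 18 condensin and cohesin genes, which fold and hold chromosomes, edgeR called 0 in CTX100 against PBS, beside 1.6% of all genes. In CTX140 against PBS 6 (33.3%) fell, beside 10.1% of all genes, and 0 rose, beside 11.1%. Among those that fell was the cohesin subunit Stag1 at -0.62 ± 0.13 (adjusted p = 0.00418). Of 17 genes of the anaphase-promoting complex and its partners 0 were called in CTX100. In CTX140 against PBS 1 (5.88%) rose, a share below that of all genes, and 3 (17.6%) fell. Anapc11 rose by 0.45 ± 0.14 (adjusted p = 0.0374), and Anapc2 had -0.33 ± 0.09 (adjusted p = 0.0190). Medians over these lists in CTX100 were 0.13 and 0.05. Among 17 other genes of entry into the cycle or mitosis, Ccne1, cyclin E1 of the G1 to S transition, rose by 0.75 ± 0.15 (adjusted p = 0.0249) in CTX100 and 1.13 ± 0.15 (adjusted p = 0.000266) in CTX140 against PBS. Its kinase Cdk2 had -0.35 ± 0.12 (adjusted p = 0.0402) in CTX140. Wee1, the kinase that keeps CDK1 inactive, had 0.05 ± 0.12 (adjusted p = 0.862) in CTX100, -0.32 ± 0.12 (adjusted p = 0.0713) in CTX140 against PBS and -0.37 ± 0.11 (adjusted p = 0.0865) in CTX140 against CTX100.

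Among 22 genes for transcription factors of the cell cycle, edgeR called 0 in CTX100, and 1 (4.55%) rose and 2 (9.09%) fell in CTX140 against PBS, shares below the 11.1% and 10.1% of all genes. Mybl2 encodes B-Myb, the MuvB partner that precedes FOXM1. Mybl2 was at 22.8, 19.4, 12.4 and 21.03 CPM in the PBS libraries, 31.4, 35.96, 32.8, 33.04 and 25.6 CPM in the CTX100 libraries and 19.6, 24.3, 31.8, 27.3 and 39.5 CPM in the CTX140 libraries. CTX100 lay above PBS in every library, and CTX140 5 was the highest of the 14. Mybl2 had 0.75 ± 0.20 (adjusted p = 0.0699) in CTX100 and rose by 0.59 ± 0.20 (adjusted p = 0.0458) in CTX140 against PBS, where Foxm1 had 0.10 ± 0.15. Tfdp2, an E2F partner, was lower in CTX140 than in both other groups, with log2 fold changes of -0.75 ± 0.15 (adjusted p = 0.00325) against PBS and -0.71 ± 0.15 (adjusted p = 0.0321) against CTX100. Of 21 DNA replication genes, 2 (9.52%) rose in CTX100 against PBS, beside 1.2% of all genes, and 2 rose in CTX140, beside 11.1% of all genes. In both, 0 fell, with medians of 0.41 in CTX100 and 0.26 in CTX140. Rrm2, of ribonucleotide reductase, rose by 0.67 ± 0.16 (adjusted p = 0.0431) in CTX100, and Cdc6, a loader of the replicative helicase, by 0.61 ± 0.18 (adjusted p = 0.0248) in CTX140.

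Of 20 p53 targets, 4 rose and 0 fell in CTX100 against PBS, beside 1.2% and 0.397% of all genes, and 12 rose and 1 fell in CTX140 against PBS, beside 11.1% and 10.1%. Cdkn1a encodes p21. Cdkn1a was at 62.4, 48.3, 36.8 and 36.6 CPM in the PBS libraries, 111, 115, 105, 78.03 and 126 CPM in the CTX100 libraries and 143, 181, 157, 117 and 124 CPM in the CTX140 libraries. All treated libraries exceeded all PBS libraries, and CTX140 overlapped CTX100. Cdkn1a rose by 1.22 ± 0.18 (adjusted p = 0.0120) in CTX100 and 1.65 ± 0.19 (adjusted p = 6.79e-05) in CTX140 against PBS, and CTX140 against CTX100 gave 0.44 ± 0.17 (adjusted p = 0.142). Fas, a death receptor, rose by 1.38 ± 0.14 (adjusted p = 4.11e-05) in CTX140, Eda2r was higher in CTX140 than in CTX100 by 1.96 ± 0.41 (adjusted p = 0.0347), and Ei24 had -0.43 ± 0.12 (adjusted p = 0.0185) in CTX140 against PBS. Cdkn1a and 11 mitosis genes were both called higher in the CTX100 libraries than in the PBS libraries. Which cells carried the p53 target transcripts, and whether p53 acted in those cells, was not tested.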

How the data were processed

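RNA of the 14 tumour samples was read on an Illumina platform, per the labels' protocols, and the submitters' processing notes name mm10 and DESeq2. No source used here names the aligner, the counter or its strand setting. The authors deposited whole-number read counts per gene, not normalized, and FPKM values for the same genes, which equal the counts divided by gene length and by 1 constant per library. Counts were fitted in R 4.3.3 with edgeR 4.0.16 over all 14 libraries, with TMM factors, filterByExpr by group and robust quasi-likelihood dispersions, and a call needs a Benjamini-Hochberg adjusted p under 0.05. CPM uses the TMM-scaled library size, and log2 CPM a prior count of 2. Means are given with SD and log2 fold changes with SE. Each pair of libraries of a group differed by more than sampling noise, so each was counted once.

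The mitosis genes, the other gene lists and the tests were chosen with earlier results of these data known. Full values are given, in each role group, for the gene with the smallest p in CTX100 against PBS and in CTX140 against CTX100, and for Foxm1, Mki67 and Bub3. From the other lists, the called gene with the smallest p in each comparison and direction is named, plus Mybl2, Cdkn1a and Wee1. Alternatives were RLE and upper quartile factors, no filter, a filter of 1 CPM in 4 libraries, the replicate number as a block, a fit of only the groups compared, DESeq2 1.42.0, limma 3.58.1 on log2(FPKM + 1), and leaving out each library. The edgeR fit was tested on simulated data. Gene positions are those of the deposited table (mm10), and promoter sequences are from RefSeq on GRCm38.p6.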

Additional observations from a re-analysis of the deposited data

Results flagged for a closer look

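In 5 of the 132 groups of values examined, 1 library stood apart from the others of its group by Dixon's criterion, which by chance marks about 1 group in 20. Kif4 was at 27.5 CPM in CTX140 5, where the next highest CTX140 library was at 21.6 CPM. Melk was at 46.8 CPM in CTX100 3, with the next CTX100 library at 38.6 CPM. Tpx2 and Ube2c were low in CTX100 2, at 146 and 158 CPM, where the nearest CTX100 libraries were at 160.4 and 194 CPM. Anln was at 225 CPM in PBS 2, with the nearest PBS library at 198 CPM.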

How the results depend on the processing

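The median log2 fold changes of the 43 genes kept their sign under every alternative run, whereas counts of called genes depended on the setting. In CTX100 against PBS the 11 mitosis genes became 23 by DESeq2, 20 with only the groups compared and 0 to 16 when 1 library was left out, and the 245 genes called over the whole table became 857, 529 and 17 to 686, and 150 by limma. In CTX140 against PBS the 1 mitosis gene called higher became 3 with RLE factors, upper quartile factors, the filter of 1 CPM or DESeq2, and 1 to 4 with a library left out. The 1 called lower became 0 with upper quartile factors or limma and 0 to 2 with a library left out, and the 3268 genes became 1878 with only the groups compared and 1975 to 3894 with a library left out. In CTX140 against CTX100 the 3 mitosis genes called lower became 13 by DESeq2 and 0 to 20 with a library left out, and the 192 genes became 1285 and 0 to 1007. For single mitosis genes no called direction reversed, and 90, 9 and 21 calls were lost in these comparisons over all alternatives, against 28, 15 and 29 gained. The causes were not tested.

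With the replicate block, 2 mitosis genes were called higher in CTX100 against PBS and 293 genes in CTX140 against CTX100; the other counts stayed within 1.5 times. Same-numbered libraries had correlations of -0.19 to 0.43 over 13 pairs, with 5 over 0.1 and the highest for PBS 1 with CTX140 1. The labels state no pairing, and these mixed values do not settle whether the numbers pair the libraries. The level difference of the 43 genes was 0.48, 0.09 and -0.40 for CTX100 against PBS, CTX140 against PBS and CTX140 against CTX100. Relative to the epithelial markers it was -0.25, -1.79 and -1.54, which turns the sign of both differences against PBS; with 1 library left out it was -0.38 to 0.05, -1.97 to -1.46 and -1.72 to -1.2, and the 0.05 is without PBS 4. Relative to Krt8 and Krt18 alone, a scale added after the data were seen, it was 0.28, 0.19 and -0.09.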
